A study of Mus musculus with 35 samples.

Results

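The genes of the cytosolic ribosome were followed in astrocytes, the supporting glia of the brain, after systemic inflammation. Members were chosen by name: every gene whose symbol is Rpl or Rps followed by a number, with the letter endings of known variants, plus Rplp0, Rplp1, Rplp2 and Rpsa. This gave 86 of the 19573 genes measured. They comprise 77 genes of the standard subunits, of which 46 belong to the large subunit or its stalk and 31 to the small subunit, and 9 further genes that are variants or copies of a standard one (Rpl3l, Rpl7l1, Rpl22l1, Rpl36al, Rps27l, Rps4l, Rps12l1, Rps3a2 and Rps3a3). Fau, which encodes a ribosomal protein fused to a ubiquitin-like protein, is outside the naming rule and is given with the other genes of translation.

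The cells were cortical astrocytes sorted by flow cytometry from Aldh1l1egfp mice aged postnatal day 30 to 35, in which an astrocyte gene marks the cells with a green fluorescent protein. All groups, controls included, carry this reporter. Mice received 5 mg/kg of lipopolysaccharide (LPS, an inflammatory molecule from the outer membrane of bacteria) or saline, and RNA was amplified from the sorted cells and sequenced in 35 libraries. Females were sampled at 3 h (4 saline and 5 LPS libraries), 24 h (5 saline and 4 LPS) and 72 h (4 saline and 3 LPS), and males at 24 h (5 saline and 5 LPS). Levels are in FPKM, that is, sequenced fragments divided by transcript length and by the mapped fragments of the library, so that levels can be compared between genes of different length. The labels do not say whether each library came from its own animal, and the tests can speak only for the spread from library to library, which may be technical.

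A ribosome holds 1 copy of nearly every ribosomal protein, with several copies only of the stalk proteins, and cells therefore keep the production of these proteins in step. In mammals most of their mRNAs begin with a 5′ terminal oligopyrimidine tract, an unbroken run of C and T bases through which the growth regulator mTORC1 sets how well the mRNA is translated. Ribosomal protein genes have also left many processed pseudogenes, reverse-transcribed copies of the mRNA inserted elsewhere in the genome, whose sequences can be almost identical to the parent.

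The 12 astrocyte markers looked at summed to between 6085 and 13399 FPKM in the sorted libraries, above the markers of each other cell type. The glutamate transporter gene Slc1a2 lay between 469.8 and 927 FPKM and the water channel gene Aqp4 between 150.8 and 313 FPKM in the 35 libraries. Transcripts of other cells were present too. Summed oligodendrocyte markers lay between 204 and 2183 FPKM, erythroid markers between 49.9 and 1787 and microglia markers between 52.7 and 1262. Markers of neurons, endothelium and blood leukocytes reached 576, 210 and 310 FPKM. In female saline libraries at 72 h the myelin gene Mbp reached 1082 FPKM. Calls of these markers in the LPS comparisons are given below. FPKM summed to between 456417 and 565592 per library, the depth in reads is unknown, and 4.86% to 24.4% of the sum came from mitochondrially encoded genes.

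Start-site sequences from RefSeq (GRCm38.p6) were found for 62 of the 86 genes. They are shown because members that responded to LPS and members that did not can be compared around the annotated start. An unbroken run of at least 8 C or T bases (C and T in any order, read on the coding strand, from 50 bases before to 50 after the annotated start) was present in 50 of the 62 promoters (80.6%), against 35.7% of 27025 promoters of all genes. On the opposite strand the share was 25.8%, against 37.2% of all promoters. The 30 bases around the longest run are printed below for genes called in the comparisons and for Rpl5 and Rpl22l1, which were not; capitals mark the run.
Rps18 (chr17:33955647-33955676, minus strand): tcacttccgCTCTCTCTTCCacaggaggcc
Rps6 (chr4:86857349-86857378, minus strand): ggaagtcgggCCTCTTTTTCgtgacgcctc
Rpl41 (chr10:128549119-128549148, minus strand): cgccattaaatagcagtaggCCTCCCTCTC
Rps19 (chr7:24884612-24884641, plus strand): cgcccgggaaaccccgtcgTTCCCTTTCCC
Rplp0 (chr5:115559467-115559496, plus strand): ggaccgcctggTTCTCCTataaaaggcaca
Rps4x (chrX:102189342-102189371, minus strand): cgcgcagcctccgaccctaaTTTCTTCgtt
Rps28 (chr17:33824566-33824595, minus strand): ctgtcccgaggaTTCCTgggtaccgcgtgc
Rpl22l1 (chr3:28805499-28805528, plus strand): cgcaagcccgTTCTCTTCCCacggctgcag
Rpl5 (chr5:107900498-107900527, plus strand): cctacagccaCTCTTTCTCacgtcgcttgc

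Rps4x and Rps28, the genes called in females at 24 h, had runs of 7 and 5 bases in this window, under the minimum, whereas Rpl22l1 and Rpl5 had runs of 10 and 9. Of the genes called in males only, Rplp0 also had a run of 7, and Rps18 and Rps6 had runs of 11 and 10. Counted from the annotated start, the runs begin at -2 in Rps18, -1 in Rps6, 1 in Rpl22l1 and 11 in Rplp0. Those of Rps19, Rpl41 and Rps4x begin at 39, 40 and 40, and those of Rpl5 and Rps28 at -20 and -21. The runs of Rps19 and Rpl41 reach the last base searched, so their full length is unknown. A run in the window need not be the tract at the mRNA start, and a short run does not show that the tract is absent. Over the family, a run was present in 18 of 23 promoters of genes that rose in males at 24 h (78.3%) and in 32 of 39 of the others (82.1%). The motif CCGGAAG (both strands), which contains the core recognised by factors of the ETS family, was in 24 of the 62 promoters (38.7%, against 9.12% of all promoters). The motif AAGATGGC (both strands), which contains the core recognised by YY1, was in 5 (8.06%, against 2.88%). Both motifs were searched from 250 bases before to 50 after the annotated start, a wider window than that of the runs. Runs and motifs are matches of letters in a window, not measured sites.

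Much of the FPKM of the family was listed under copies of its genes. Searching the coding sequences against GENCODE M21 transcripts (mouse build GRCm38, the mm10 of the files) found 978 annotated copies with at least 90% identity over at least 70% of the coding sequence. Of these, 456 are in the table, 443 of them typed as pseudogenes. They took 43.4% to 48.3% of the FPKM of members and copies together in a library, and for 38 of the 77 standard genes the copies summed to more than the gene itself. How reads were divided between a gene and its copies is not given in the sources used here, so the level of a gene with copies is uncertain. The search used the longest annotated coding sequence of each gene, so copies of a shorter form could fall under the 70% and be missed. No coding sequence was annotated for 4 members (Rps4l, Rps12l1, Rps3a2 and Rps3a3), so copies of these were not searched for.

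Rpl29, a large-subunit gene on chromosome 9 (106429454 to 106431568), shows the extreme. It was listed at a mean of 1.28 FPKM over the 35 libraries, the lowest of the standard genes, while its 19 copies summed to 56.2 FPKM, which is 97.8% of the combined value. Its first 60 coding bases are identical in the 2 copies with the most FPKM, on chromosome 5 (115801677 to 115802159, 23.5 FPKM) and chromosome 1 (43189156 to 43189638, 6.73 FPKM), and a read lying within this stretch matches all 3 places equally.
Rpl29: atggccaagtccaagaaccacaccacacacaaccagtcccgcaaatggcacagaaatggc
Copy on chromosome 5 (RP23-265I19.1): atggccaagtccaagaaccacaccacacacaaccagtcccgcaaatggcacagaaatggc
Copy on chromosome 1 (AC161207.2): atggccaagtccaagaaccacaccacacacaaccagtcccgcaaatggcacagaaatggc

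Members can also be copies of each other. Rps3a1, a small-subunit gene with a mean of 33.4 FPKM, is 99.5% identical over its coding sequence to Rps3a2 (8.62 FPKM) and 99.0% identical to Rps3a3 (2.56 FPKM). Coding bases 202 to 261 hold 1 difference in Rps3a2 and 2 in Rps3a3, marked by capitals.
Rps3a1: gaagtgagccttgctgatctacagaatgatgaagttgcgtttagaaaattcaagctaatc
Rps3a2: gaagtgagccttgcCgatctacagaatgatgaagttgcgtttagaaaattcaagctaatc
Rps3a3: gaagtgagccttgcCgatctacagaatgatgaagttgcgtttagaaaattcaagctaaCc

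Among the 77 standard genes, mean FPKM ran from 1.28 for Rpl29 to 83.5 for Rps14, with a median of 30.4, a ratio of 65.1 between the highest and the lowest. Besides the small-subunit gene Rps14, high levels were listed for Rps29 (78.9 FPKM) and Rpl4 (58.1 FPKM). At the low end Rpl29 was followed by Rpl17 (3.55 FPKM, with 93.9% of the combined value in copies) and Rps12 (4.92 FPKM, 83.7%). Of the 10 lowest standard genes, 9 had copies that summed to more than the gene. The exception, Rpl22, has no copy in the table and was at 12.4 FPKM. With copies added to their parent, the range narrowed to 12.4 (Rpl22) to 129 FPKM (Rpl23a), a ratio of 10.4, and the SD of the log2 levels over the 77 genes fell from 1.01 to 0.60. The variant Rpl3l, which is known from skeletal and heart muscle, had no copy and the lowest level of all 86 genes, 0.669 FPKM on average and between 0 and 2.76 FPKM in the libraries.

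**Figure D1:**
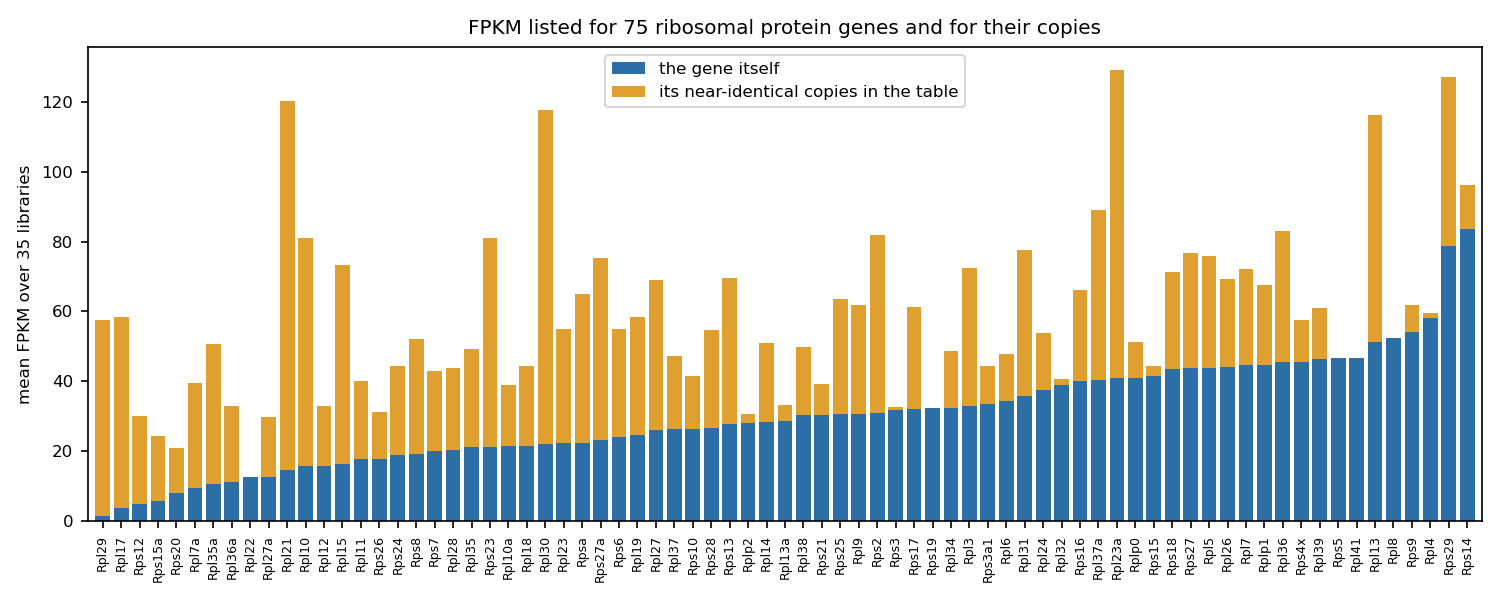
Mean FPKM over 35 libraries of 75 of the 77 standard ribosomal protein genes (blue) and, stacked on each, of its near-identical copies in the table (yellow), in order of the gene's own level. Genes at the left, such as Rpl29 and Rpl17, carry most of their combined value in copies, and the combined heights differ less than the blue parts.

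At 24 h after LPS in males, transcripts of many ribosomal proteins of both subunits and of the stalk were higher. In the fit over all 19426 genes tested (limma on log2(FPKM + 1), adjusted p under 0.05), 33 of the 86 genes were higher with LPS (38.4%, against 7.08% of all genes) and none was lower (1.82% of all genes were). At an unadjusted p under 0.05, 63 were higher and 0 lower, where 22.1% of all genes were higher and 7.69% lower. The median log2 fold change of the 86 was 0.67, against 0.18 over all genes, and 79 of 86 were above 0 (63.9% of all genes were). LPS and saline libraries did not overlap, with LPS higher, for 38 of the 86 (9.55% of all genes). The 33 genes comprised 14 of 43 large-subunit genes, 14 of 31 small-subunit genes, all 3 stalk genes and 2 of the 9 variants, the copies Rps12l1 and Rps3a2, with median log2 fold changes of 0.67, 0.69, 0.96 and 0.39 over all genes of each class.

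The stalk is the arm of the large subunit that recruits elongation factors. Rplp0, its base (chromosome 5, 115559467 to 115563727), was at 18.2, 22.7, 37.0, 37.3 and 26.1 FPKM in the 5 male saline libraries and at 51.6, 46.6, 55.3, 74.8 and 72.8 FPKM in the 5 LPS libraries. Every LPS library was above every saline library, and the log2 fold change was 1.09 (SE 0.27, limma adjusted p = 0.0115). Its partner Rplp1 lay between 18.5 and 44.4 FPKM with saline and between 48.5 and 71.6 with LPS, again without overlap (log2 fold change 0.96, SE 0.29, limma adjusted p = 0.0358). Rplp2 lay between 14.8 and 27.2 FPKM with saline and between 29.2 and 41.5 with LPS (log2 fold change 0.81, SE 0.21, limma adjusted p = 0.0174).

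Of the small subunit, Rps18, a protein of the head of the subunit near the contact with the large one (chromosome 17, 33951999 to 33956001), had the smallest adjusted p of the family in males at 24 h. It was at 18.5, 25.6, 35.9, 36.2 and 31.7 FPKM with saline and at 49.7, 56.4, 68.0, 62.5 and 73.6 FPKM with LPS. The groups were apart, and the log2 fold change was 1.07 (SE 0.22, limma adjusted p = 0.0021). Rps6, the ribosomal protein phosphorylated downstream of mTORC1, was at 11.1, 14.5, 19.3, 16.4 and 12.2 FPKM with saline and at 31.7, 22.9, 26.8, 35.2 and 42.1 FPKM with LPS (log2 fold change 1.05, SE 0.23, limma adjusted p = 0.0040). Its 6 copies in the table hold 56.6% of the combined FPKM. Rps19, the gene most often mutated in Diamond-Blackfan anaemia in humans, had no copy found in the table with its longest coding sequence of 636 bases. It was at 14.2, 14.7, 25.4, 31.1 and 19.5 FPKM with saline and within a narrow 42.6 to 48.8 FPKM in the 5 LPS libraries (log2 fold change 1.13, SE 0.29, limma adjusted p = 0.0141).

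Of the large subunit, Rpl41, which encodes a very short basic peptide, had the largest log2 fold change of the 33, 1.35 (SE 0.38, limma adjusted p = 0.0234). A search with its longest coding sequence of 138 bases found no copy in the table. Rpl41 was at 21.2, 15.4, 22.9, 31.4 and 38.6 FPKM with saline and at 72.3, 64.4, 95.2, 29.8 and 85.3 FPKM with LPS. LPS replicate 4 fell inside the saline range, so the groups overlapped. Rpl32 lay between 12.9 and 35.3 FPKM with saline and between 37.3 and 65.1 with LPS (log2 fold change 0.95, SE 0.30, limma adjusted p = 0.0387). Rpl12, part of the base of the stalk, lay between 6.77 and 13.7 FPKM with saline and between 13.3 and 26.2 with LPS, with a slight overlap (log2 fold change 0.89, SE 0.25, limma adjusted p = 0.0227). Rpl3, at the peptidyl transferase centre, was at 21.1, 26.4, 26.1, 28.4 and 20.4 FPKM with saline and at 43.3, 41.1, 42.2, 46.2 and 52.6 with LPS (log2 fold change 0.86, SE 0.18, limma adjusted p = 0.0033). Over the 33 called genes the log2 fold change ran from 0.55 to 1.35 and the adjusted p from 0.0021 to 0.0493.

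The count in males rested on particular libraries. Without saline replicate 1 it was 9, without saline replicate 2 it was 15, without saline replicate 5 it was 14, without LPS replicate 4 it was 19 and without LPS replicate 5 it was 11. Saline replicates 1 and 2 had the lowest summed FPKM of the family in each sex at 24 h. Without these 4 libraries together, 2 genes were called and the median log2 fold change was 0.53. Scaling by median-of-ratios size factors in place of the deposited scale moved the median of all genes from 0.18 to 0.02 and that of the family from 0.67 to 0.46, and 12 genes were called. Rpl41, Rplp1, Rpl32 and Rpl12 were not among them, with adjusted p from 0.0573 to 0.0834, while Rplp0, Rps18, Rps19 and Rps6 were. Shares of all genes called are given for the main fit only, so counts under alternative fits lack that comparison.

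At 24 h in females most of the family was also above 0, but few genes passed the test. Rps4x and Rps28 were called higher (2 of 86, 2.33%, against 2.54% of all genes) and none lower (0.798% of all genes were). At an unadjusted p under 0.05, 26 were higher and 0 lower, where 8.73% of all genes were higher and 5.27% lower. The median log2 fold change was 0.45, against 0.05 over all genes, and 83 of 86 were above 0 (56.1% of all genes were). The groups did not overlap, with LPS higher, for 7 genes (Rpl27a, Rps25, Rps28, Rps3a1, Rps3a2, Rps4x and Rps7, 3.32% of all genes).

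Rps4x, the X-linked small-subunit gene (X chromosome, 102184941 to 102189394), was at 26.4, 31.1, 39.7, 28.2 and 29.4 FPKM in female saline libraries at 24 h and at 56.7, 69.6, 64.9 and 66.6 FPKM in LPS libraries. The gap between the groups was wider than the range within either, and the log2 fold change was 1.05 (SE 0.19, limma adjusted p = 0.00055). In males it was at 30.3, 34.3, 43.1, 34.3 and 31.7 FPKM with saline and at 93.3, 43.6, 49.7, 65.4 and 63.7 with LPS (log2 fold change 0.80, SE 0.18, limma adjusted p = 0.0050). Rps28, a small-subunit protein near the mRNA exit channel, was at 16.0, 17.2, 21.0, 15.7 and 21.1 FPKM in female saline libraries and at 44.4, 32.5, 29.7 and 38.3 FPKM with LPS (log2 fold change 0.95, SE 0.20, limma adjusted p = 0.0033). In males its log2 fold change was 0.69 (SE 0.19, limma adjusted p = 0.0227). Rps4x and Rps28 have 4 and 6 copies in the table, which hold 20.6% and 51.3% of the combined FPKM. With copies added to the parent, Rps28 had a log2 fold change of 0.81 in females and lost its call (limma adjusted p = 0.0541). Without female saline replicate 3 the count in females was 4, and without saline replicates 1 and 2 of both sexes it was 1, Rps4x.

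**Figure D2:**
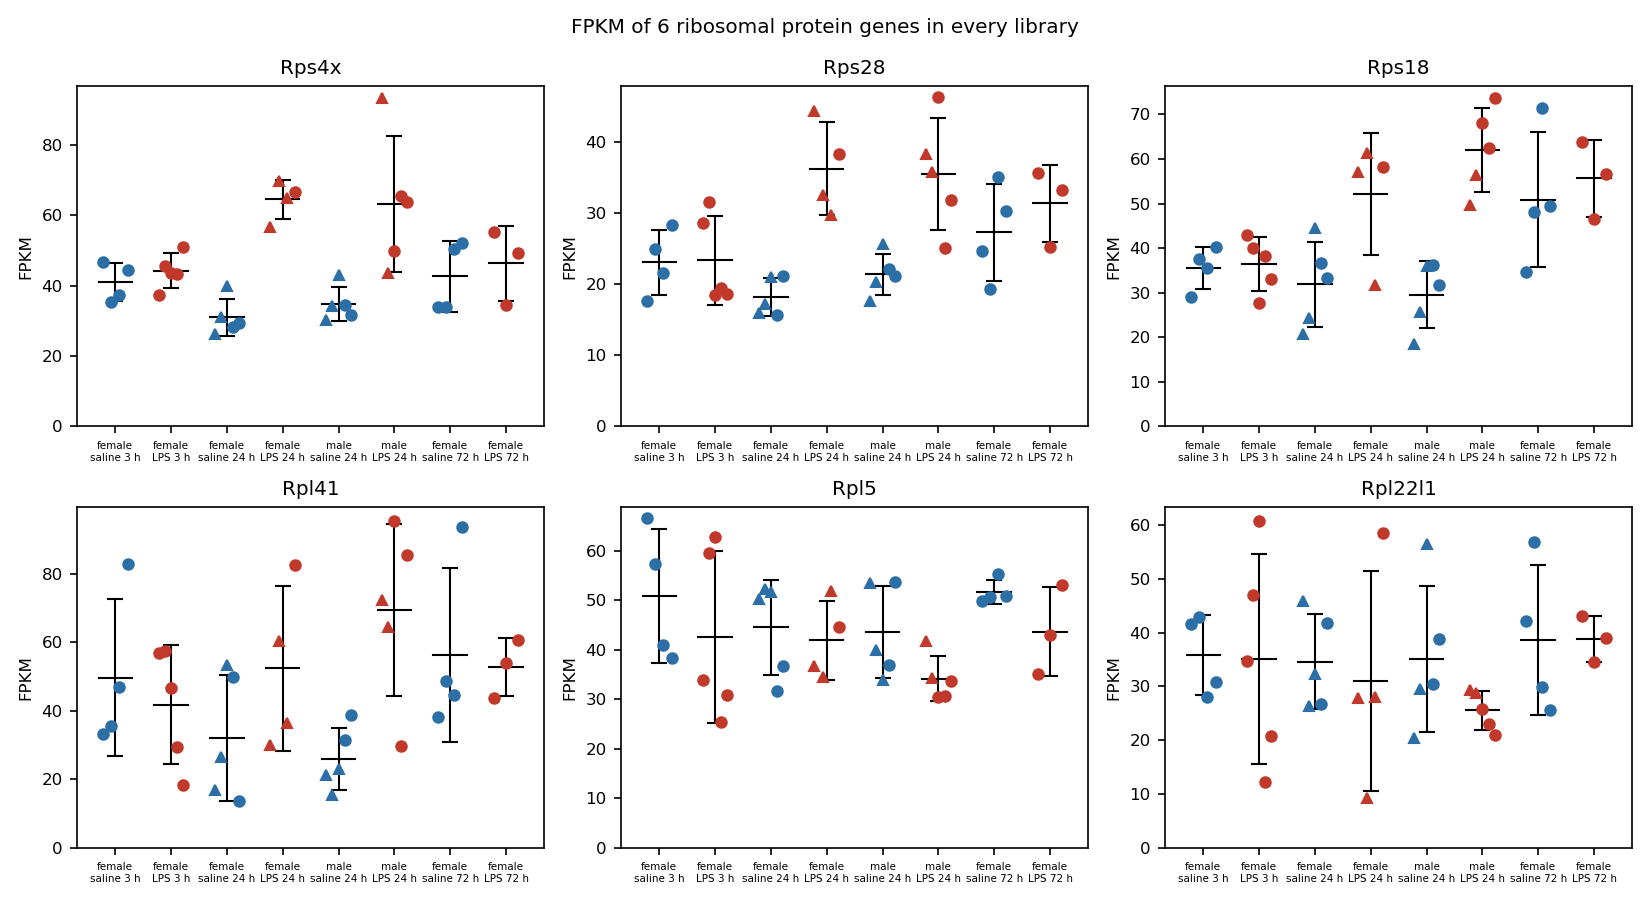
FPKM of Rps4x, Rps28, Rps18, Rpl41, Rpl5 and Rpl22l1 in each library by group (blue, saline; red, LPS; triangles, libraries with single-precision values; circles, double-precision), with mean and SD as bars. The 4 female LPS libraries of Rps4x at 24 h lie between 56.7 and 69.6 FPKM, above all 5 saline libraries, whereas Rpl5 and Rpl22l1 overlap in every comparison.

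The deposited numbers come in 2 formats, single precision in 11 of the 24 h libraries and double precision in the other 24, and this division was treated as a batch. Within the single-precision libraries the family's median log2 fold change was 0.67 in males and 0.50 in females, and within the double-precision libraries it was 0.63 and 0.41. With the fewer libraries of each format, 0 male genes were called in either, and in females 1 was called in the single-precision and 0 in the double-precision libraries. Rps4x was 0.97 and 1.18 higher in females within the formats on the log2 scale, Rps18 was 1.01 and 0.98 higher in males, and Rpl41 was 1.75 and 0.82 higher in males. Within the formats the adjusted p of Rps4x in females was 0.0801 and 0.431, and that of Rps18 in males 0.277 and 0.0692. The female double-precision value rests on 1 LPS library, which is assumed to vary like the others.

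The difference between the sexes at 24 h was tested directly and no member passed (limma, 0 of 86 higher or lower in males, with 0% of all genes called in either direction). At an unadjusted p under 0.05 there was 1 member, Rpl3, where 2.89% of all genes were higher and 1.09% lower. The log2 fold change was larger in males for 68 of 86 genes (61.8% of all genes), with a median difference of 0.23, against 0.12 over all genes. For Rpl3 the LPS effect was larger in males by 0.63 (SE 0.27, limma adjusted p = 0.945). In females Rpl3 was at 21.6, 26.4, 35.4, 27.8 and 31.3 FPKM with saline and at 36.8, 38.9, 30.3 and 28.0 FPKM with LPS. Rps4x and Rps28 had differences in the other direction, -0.24 (SE 0.26) and -0.26 (SE 0.28). Between male and female saline libraries at 24 h none of the 86 was called (0.0309% of all genes were higher and 0.0206% lower in males). There 0 had an unadjusted p under 0.05 (1.43% of all genes were higher and 0.968% lower), and the median log2 difference was -0.05.

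Only 2 genes, Rpl5 and Rpl22l1, were below 0 in both sexes at 24 h, and 78 were above 0 in both. Rpl5 is part of the particle that joins the large subunit during assembly and that binds the p53 regulator Mdm2 when assembly fails. It was at 53.4, 40.0, 34.0, 36.9 and 53.7 FPKM in male saline libraries and at 41.8, 34.4, 30.5, 30.7 and 33.6 FPKM in male LPS libraries, which overlapped (log2 fold change -0.33, SE 0.22, limma adjusted p = 0.299). In females it was -0.07 (SE 0.23). Rpl22l1, the variant of the RNA-binding large-subunit protein Rpl22, was at 20.3, 29.4, 56.5, 30.4 and 38.7 FPKM with saline and at 29.3, 28.8, 25.8, 22.9 and 20.9 FPKM with LPS in males (log2 fold change -0.37, SE 0.35), and was -0.38 (SE 0.37) in females. Neither passed the test in any comparison. Rpl22 itself was 0.35 (SE 0.16, limma adjusted p = 0.132) in males and 0.27 (SE 0.17) in females.

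At 3 h after LPS the family did not move as a group. No member was called in either direction (limma, with 1.94% of all genes higher and 0.443% lower). At an unadjusted p under 0.05 there was 1 higher and 1 lower, where 6.54% of all genes were higher and 5.48% lower. The median log2 fold change was 0.00, against 0.02 over all genes, with 44 genes above 0 and 42 below (52.0% of all genes were above 0). Rps24, a small-subunit protein, was the one gene whose groups did not overlap at this time (LPS lower in 1 of 86, against 1.7% of all genes, and higher in 0, against 2.98%). It was at 18.5, 20.6, 33.8 and 19.6 FPKM with saline and at 11.6, 17.2, 16.7, 10.4 and 13.1 FPKM with LPS (chosen after its values were seen, and not called). In the test of 24 h against 3 h in females, no member passed (0.293% of all genes were higher and 0.417% lower), 14 had an unadjusted p under 0.05, all larger at 24 h (4.82% of all genes were larger and 3.75% smaller at that p), and the median difference was 0.40, against 0.03 over all genes. The differences were 0.94 (SE 0.27, limma adjusted p = 0.117) for Rps4x and 0.95 (SE 0.28, limma adjusted p = 0.146) for Rps28.

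At 72 h none of the 86 genes was called (limma, with 0.0772% of all genes higher and 0% lower). At an unadjusted p under 0.05 there were 0 higher and 1 lower, where 2.3% of all genes were higher and 3.09% lower. The median log2 fold change was -0.11, against -0.10 over all genes, and 23 of 86 genes were above 0 (37.7% of all genes were). Rpl10, the X-linked large-subunit protein that completes the subunit late in assembly, was at 15.2, 16.8, 25.5 and 22 FPKM with saline and at 13.8, 14.2 and 14.0 FPKM with LPS (log2 fold change -0.45, SE 0.19, limma adjusted p = 0.856). It was the one gene whose groups did not overlap at 72 h (LPS lower in 1 of 86, against 3.44% of all genes, and higher in 0, against 2.34%). Rps4x was at 34.0, 33.8, 50.4 and 52.2 FPKM with saline and at 55.2, 34.6 and 49.3 FPKM with LPS, which overlapped. Saline replicates 3 and 4 had the highest summed values of the family in the series, 3879 and 3739 FPKM, beside mitochondrial shares of 5.96% and 5.43%. Without both, the median at 72 h was 0.25, the other direction, and 0 genes were called. The LPS effect at 72 h was below that at 24 h in females by a median of 0.56 (0.17 over all genes). It was below for 84 of 86 genes and above for 2, where 37.4% of all genes were above. No member passed the test of that difference (0.0206% of all genes were higher and 0.324% lower). At an unadjusted p under 0.05, 12 members were lower, as were 6.93% of all genes.

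**Figure D3:**
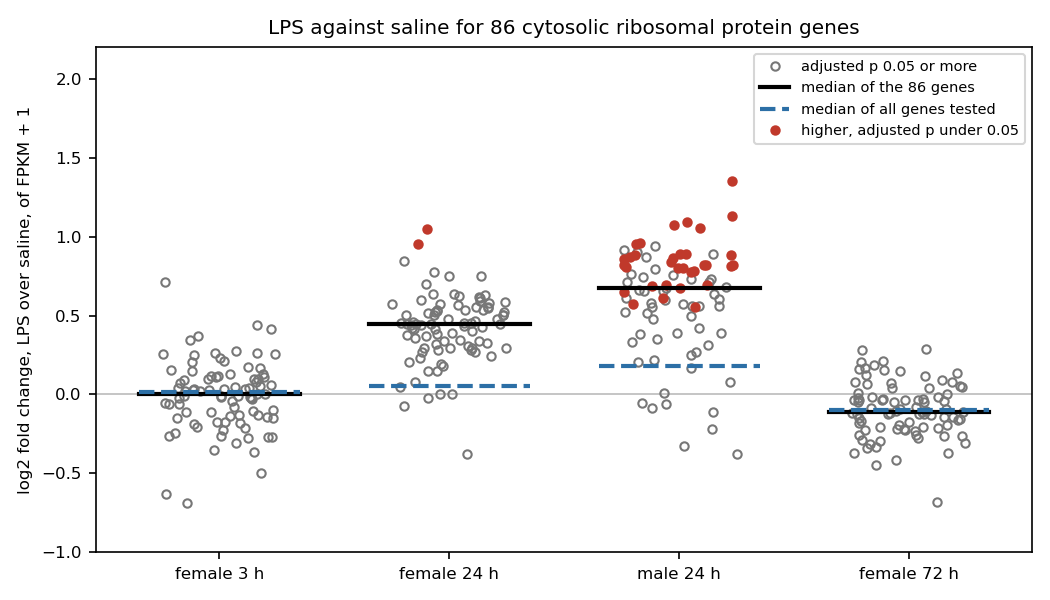
Log2 fold change of FPKM + 1, LPS over saline, for each of the 86 genes in the 4 comparisons (red, adjusted p under 0.05; open, not), with the median of the family (black line) and of all genes tested (dashed blue line). The family lies above the all-gene median at 24 h, at 0.45 in females and 0.67 in males, and close to it at 3 and 72 h.

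Summed over the family, male libraries at 24 h were at 1516 to 2475 FPKM with saline and 2895 to 3463 with LPS, without overlap. Female libraries at 24 h were at 1516 to 2594 FPKM with saline and 2216 to 3242 with LPS, with overlap. At 3 h the ranges were 1921 to 3043 with saline and 2198 to 2581 with LPS, and at 72 h they were 2286 to 3879 and 2176 to 3430. The family took between 0.274% and 0.804% of all FPKM.

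The mitochondrial share was lower with LPS in males. It was 16.8% to 23.4% with saline and 4.86% to 16.3% with LPS in males at 24 h, without overlap. The median log2 fold change of the 37 genes of the mitochondrial genome was -1.23 in males and -0.66 in females. In males 4 of them were called lower (1.82% of all genes were). In females 0 were (0.798% of all genes were), with 11 at an unadjusted p under 0.05, where 8.73% of all genes were higher and 5.27% lower. With every library rescaled to its FPKM outside the mitochondrial genome, 30 genes were called in males, all among the 33. With the mitochondrial share of each library added to the fit, 2 were called in males, Rps18 and Rpl41, and the median of the family was 0.42. The 2 genes called in females kept their call in that fit. In bulk samples of this kind, a change in RNA per cell and a change in the mix of cells cannot be told apart.

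**Figure D4:**
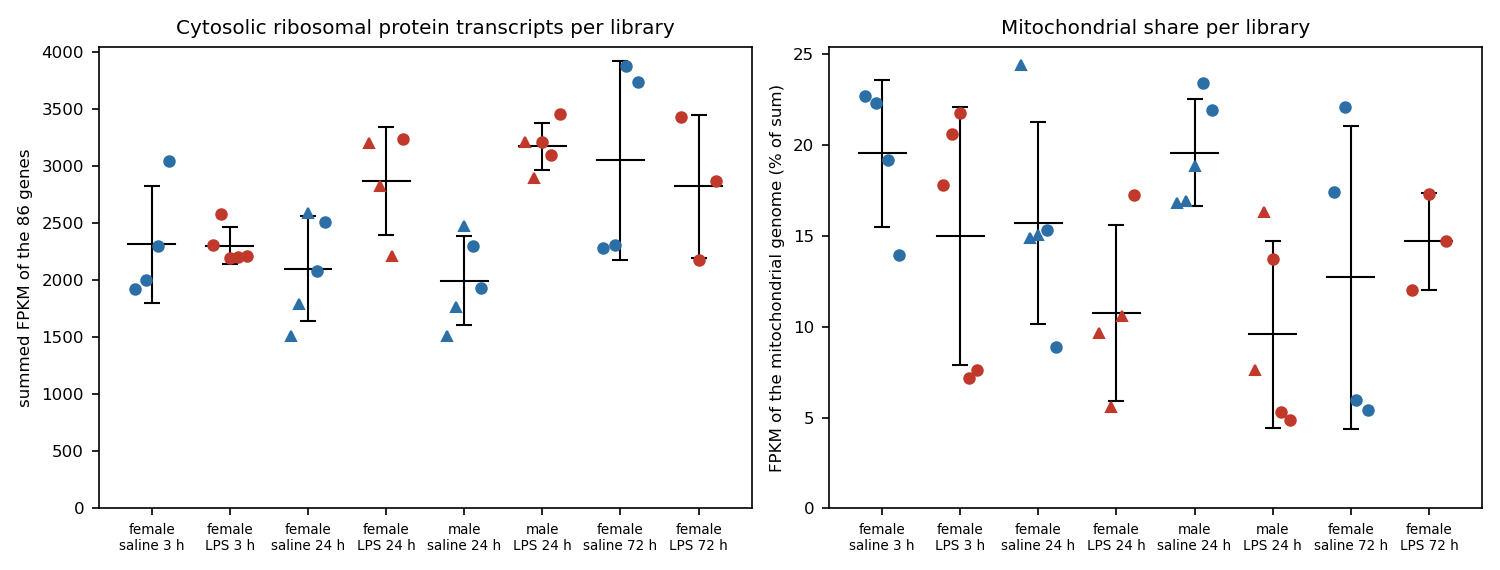
Left, FPKM summed over the 86 genes in each library by group; right, share of all FPKM from the mitochondrial genome (blue, saline; red, LPS; triangles, single-precision libraries; circles, double-precision; bars, mean and SD). At 24 h the male LPS libraries lie above all male saline libraries on the left and below all of them on the right.

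Markers of other cells differed between the male groups too, and their part in the result was not tested. Of all genes, 7.08% were higher and 1.82% lower in males at 24 h. Of 12 microglia markers 4 were higher (Aif1, C1qa, C1qb and Csf1r) and 2 lower (P2ry12 and Gpr34) in males at 24 h, and their summed level was 81.8 to 281 FPKM with saline and 158 to 398 with LPS. Of 12 neuron markers 3 were higher (194 to 325 FPKM with saline, 274 to 512 with LPS), of 10 endothelial markers 3 were higher (38.5 to 105 and 75.1 to 179 FPKM), and of 10 oligodendrocyte markers 1 was higher (335 to 1014 and 585 to 1403 FPKM). Of the 4 blood leukocyte markers tested 2 were higher (2.16 to 23.7 and 14.8 to 51.4 FPKM), and of 5 erythroid markers none was called (131 to 919 and 139 to 530 FPKM). The 12 astrocyte markers summed to 6085 to 8860 FPKM with saline and 7972 to 11803 with LPS, and 2 were higher, Gfap and Aldoc. Only 4 of the 10 blood leukocyte markers looked at were among the genes tested. In females at 24 h, 2 of 12 astrocyte markers were higher (Gfap and Gjb6), with a summed level of 7273 to 12090 FPKM with saline and 10545 to 13399 with LPS. In the same groups 1 microglia marker was lower, 2 endothelial markers were higher, and no neuron or oligodendrocyte marker was called. There 2 blood leukocyte markers were higher and 2 erythroid markers lower (2.54% of all genes were higher and 0.798% lower). At 3 h, 4 of 10 endothelial and 2 of 12 microglia markers were lower (0.443% of all genes were), and 1 of 12 astrocyte markers was higher (1.94%). At 72 h, 1 of 4 blood leukocyte markers was higher (0.0772% of all genes were) and no other marker was called. The 12 microglia markers then summed to 285 to 598 FPKM with saline and 751 to 1262 with LPS.

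The members varied together from library to library. The first principal component held 60.5% of the family's variance over the 35 libraries and 51.0% after group means were removed, against 25.8% and 27.8% for all genes. A gene's correlation with the mean of the other members had a median of 0.83 over the 35 libraries, 0.76 after group means were removed, and was above 0.5 for 72 of 86. These are descriptions over libraries that share depth and composition. Among the most correlated were Rpl26 and Rps19, and the least were Rpl5, Rpl22l1 and Rps20. Rpl39, Rpl41 and Rpl22l1 had the largest spread within groups (SD of 0.73, 0.63 and 0.59 on the log2 scale) and Rpl22, Rpl10 and Rps3a3 the smallest (0.21 each). Of the 10 other genes most alike to the family's mean after group means were removed, over the 35 libraries, 8 were copies of members, such as Rpl9-ps7 (r = 0.92) and Rpl27-ps3 (r = 0.91).

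**Figure D5:**
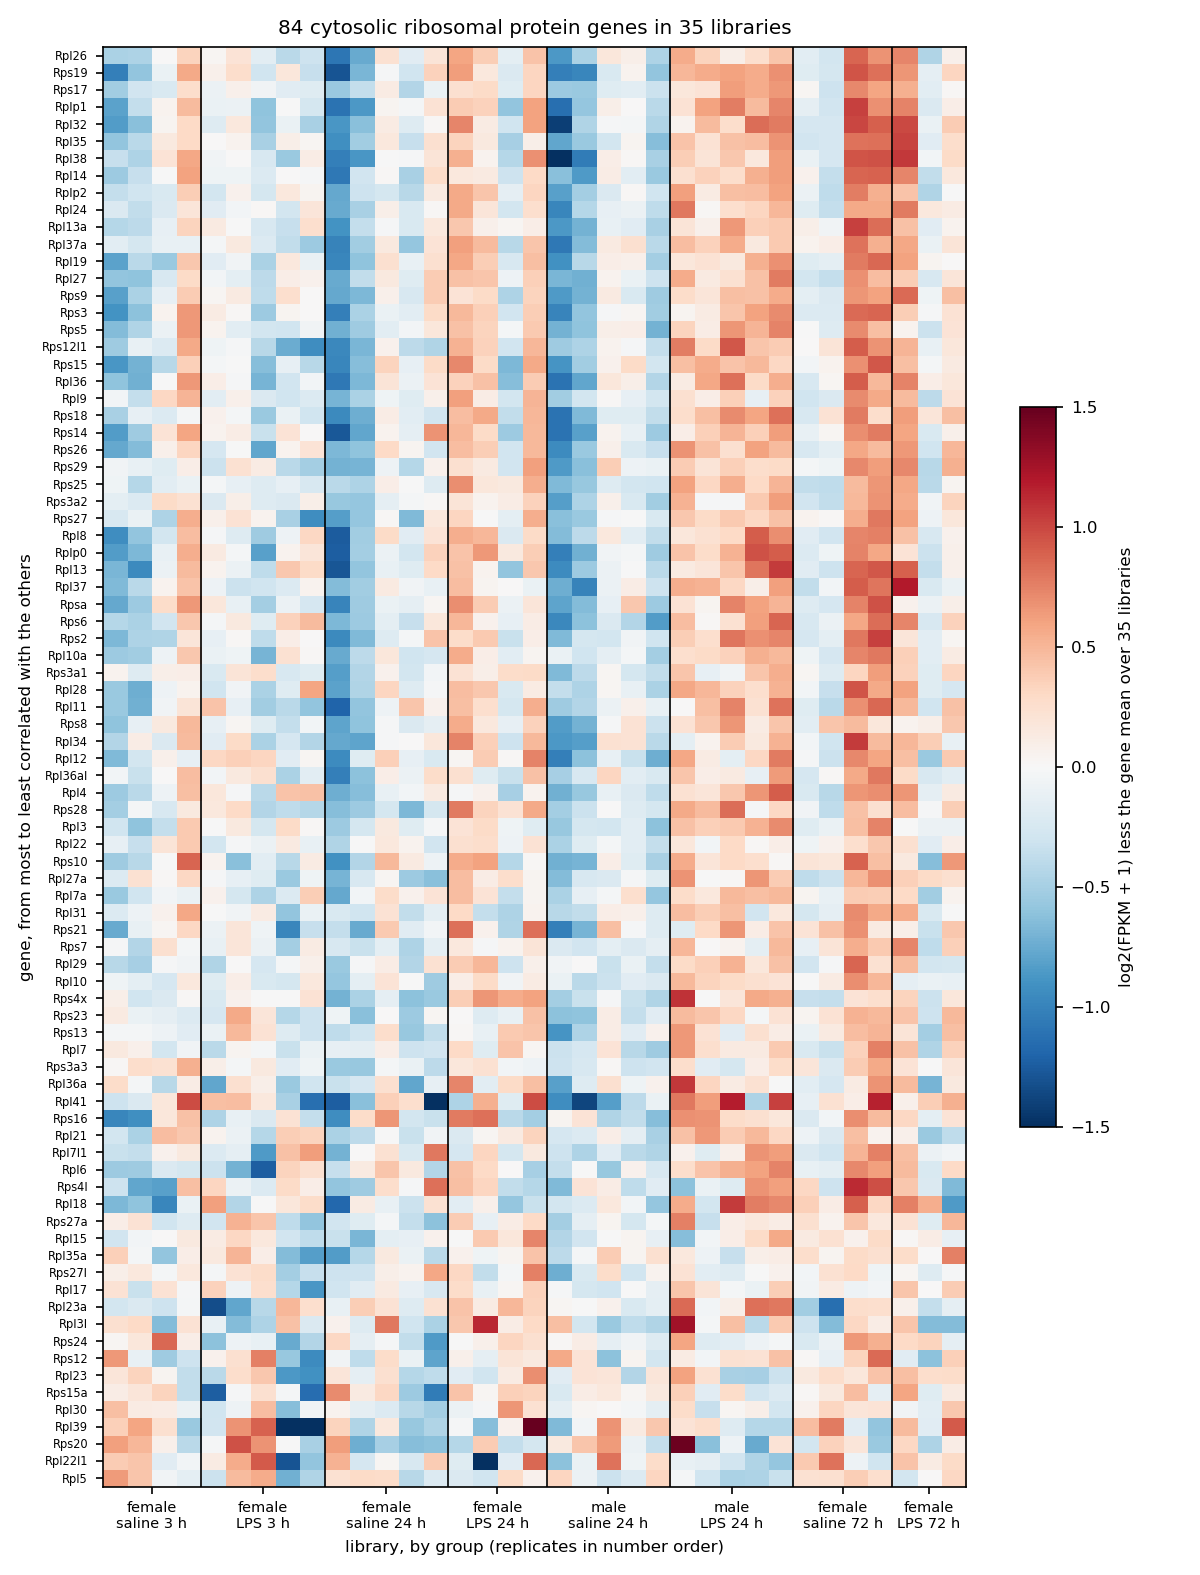
Log2(FPKM + 1) of 84 of the 86 genes (rows, from most to least correlated with the others) in each of the 35 libraries (columns, by group), less the gene's mean over all libraries. Whole columns are blue or red through most rows, for example saline replicate 1 at 24 h in both sexes and saline replicates 3 and 4 at 72 h, while Rpl39, Rps20, Rpl22l1 and Rpl5 at the bottom follow another order.

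Rpl39, the X-linked gene of a short protein lining the exit tunnel, and Rps20 showed library values unlike those of the rest. Rpl39 was at 133 FPKM in female LPS replicate 4 at 24 h, where the other 3 LPS libraries lay between 26.3 and 43.5, and at 13.8 and 8.78 FPKM in LPS replicates 4 and 5 at 3 h, where the other 3 lay between 33.7 and 77.2. Rps20 was at 22.3 FPKM in male LPS replicate 1 at 24 h and between 3.99 and 8.69 in the other 4. The other X-linked genes, Rpl10 and Rpl36a, had log2 fold changes of 0.55 (SE 0.16, limma adjusted p = 0.0271) and 0.50 (SE 0.26, limma adjusted p = 0.186) in males at 24 h. Rpl10 was at 11.3 to 14.2 FPKM with saline and 17.7 to 21.9 with LPS, without overlap, and its 9 copies hold 80.7% of the combined FPKM.

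Further variants are given here, Rps27l and Rpl7l1 beside their standard partners. Rpl36a and Rps4x, the partners of Rpl36al and Rps4l, are given above. Rps27l, a gene induced by p53, lay between 26.5 and 54.2 FPKM with saline and 38.8 and 52.1 with LPS in males at 24 h (log2 fold change 0.17, SE 0.20), while Rps27 lay between 26.6 and 41.7 and between 51.0 and 56.9 FPKM (0.65, SE 0.23, limma adjusted p = 0.0655). Rpl36al lay between 16.6 and 29.97 and between 21.7 and 37.7 FPKM (0.39, SE 0.24). Rpl7l1, a homologue of Rpl7, lay between 8.07 and 10.1 and between 10.1 and 18.9 FPKM (0.61, SE 0.26), while Rpl7 was 0.57 (SE 0.20) higher and not called. Rps4l, which has no annotated coding sequence, lay between 6.29 and 12.3 and between 6.48 and 17.3 FPKM (0.25, SE 0.31). Differences between a variant and its partner were not tested.

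The copies were tested in the same fit. Of 438 copies tested, 85 were higher (19.4%, against 7.08% of all genes) and 0 lower in males at 24 h and 7 were higher (1.60%, against 2.54% of all genes) and 0 lower in females, with median log2 fold changes of 0.44 and 0.31. With the copies added to their parent before the fit, 43 members were called in males (29 of them among the 33) and the median of the family was 0.70.

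Other genes of translation were counted in the same fit, in which 7.08% of all genes were higher in males at 24 h. In males, 4 of 36 initiation factor genes were higher and 0 lower (Eif1b 0.89, Eif1 0.81, Eif4a1 0.80 and Eif3k 0.91 on the log2 scale), with a median of 0.41 beside the 0.18 of all genes. Of 10 elongation genes 3 were higher and 0 lower (Eef1g 0.64, Eif5a 1.02 and Eef2k, the kinase that inhibits elongation factor 2, 1.03), with a median of 0.60. Of 21 other mRNAs known to start with an oligopyrimidine tract 3 were higher (Vim, which encodes an intermediate filament of reactive astrocytes, 1.45, Fau 0.97 and Eef1g), with a median of 0.37. Fau, fused in the protein it encodes to a small-subunit protein, was at 25.5 ± 10.2 FPKM with saline and 48.0 ± 5.31 with LPS (SD, n = 5 each). Mitochondrial ribosomal proteins, encoded in the nucleus and used by a separate ribosome, had 7 of 77 higher (9.09%) and a median of 0.34. Mrpl41 led them at 2.12 (SE 0.37, limma adjusted p = 0.00039).

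Few of the genes that build ribosomes passed the test in males at 24 h, where 7.08% of all genes were higher and 1.82% lower. Of 40 biogenesis genes 1 was higher (Rrp1, 0.97) and 1 lower (Riok2, a kinase of small-subunit maturation, -0.77). Their median was 0.14, beside the 0.18 of all genes. Of 15 genes of RNA polymerase I and its factors 0 were called, with a median of 0.36, above that of all genes. At an unadjusted p under 0.05 there were 2 of the 15, where 22.1% of all genes were higher and 7.69% lower. The lists are small, and their counts were not tested against the shares of all genes. Of 21 genes that control ribosomal protein mRNAs, Mxd1, an antagonist of Myc, was higher (0.80) and Tial1, which binds oligopyrimidine mRNAs under stress, was lower (-0.73). In females at 24 h, Eif1 (0.92), Eif1b (0.69), Vim (1.87) and Mrpl41 (3.22) were the genes called in these lists, all higher. At 3 h, Myc, an activator of ribosome synthesis, rose from 3.10 ± 1.25 (SD, n = 4) to 10.9 ± 2.56 FPKM (SD, n = 5, log2 fold change 1.56, SE 0.29, limma adjusted p = 0.00055). Rrs1, an assembly factor of the large subunit, rose from 16.9 ± 1.89 to 27.5 ± 3.16 FPKM (log2 fold change 0.67, SE 0.15, limma adjusted p = 0.0076). Mrpl41 was also called higher (log2 fold change 1.48, SE 0.39, limma adjusted p = 0.0319), 1 of 77 mitochondrial ribosomal protein genes (1.3%, against 1.94% of all genes). None of the 86 cytosolic ribosomal protein genes was called at 3 h.

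In the authors' deposited table, made with DESeq2, 22 of the 86 genes had an adjusted p under 0.05 in males at 24 h, all higher, and 19 of them are among the 33. Of all genes with an adjusted p in the authors' deposited table for that comparison, 8.96% were higher and 10.2% lower. The authors' deposited table listed 2 genes in females at 24 h, Rps4x (log2 fold change 0.95, adjusted p = 2.7e-05) and Rps28 (0.83, adjusted p = 0.0108), and 0 at 3 h, at 72 h and between the sexes within saline. Of all genes with an adjusted p in the authors' deposited table for females at 24 h, 2.86% were higher and 1.41% lower. At 3 h 2.61% of all such genes were higher and 0.821% lower, and at 72 h 0.723% and 0.027%. Between the sexes the shares for the opposite directions were 0.0261% and 0.0471% within saline. Within LPS they were 0.196% and 0.843%, and 0 of the 86 genes were listed. The median log2 fold change of the family in the authors' deposited table was 0.45 in males and 0.35 in females at 24 h, against 0.03 and -0.01 over all genes.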

How the data were processed

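RNA sequencing of sorted cortical astrocytes gave 35 libraries in 8 groups set from the labels. The authors deposited FPKM per gene and library, made with HISAT2 and StringTie on mm10 per the submitters' processing notes, and a table of 6 comparisons with the log2 fold change and the adjusted p-value that the authors obtained with DESeq2. Tool versions are not given in the sources used here. No counts were used, so depth and counting error are unknown, and exact zeros are described as listed at 0.

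Of 19584 entries, 11 that repeated a gene identifier were left out. The test covered genes that reached an FPKM of 1 in 3 or more libraries (19426, all 86 members among them). Group means of log2(FPKM + 1) were compared with limma 3.58.1 in R 4.3.3 (empirical Bayes with trend, two-sided), with Benjamini-Hochberg adjustment over all genes in each of 8 contrasts and a threshold of 0.05; fold changes are on this scale and understate the change of low genes. The procedure was tested on simulated data. Copies were found with BLAST 2.17.0. Named genes are those of fixed roles (stalk, X-linked, variants), the 5 highest and 5 lowest, the 3 most and least variable and correlated, and up to 8 called per contrast and direction; some of them are not reported here. The members and lists were chosen with earlier results of these data known. Alternatives were pseudocounts, filters, scalings, number format, copies, the replicate number as a block and omitted libraries.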

Additional observations from a re-analysis of the deposited data

Results flagged for a closer look

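For 35 named genes, the summed FPKM of the family and the mitochondrial share, each of the 7 groups of 4 or 5 libraries was searched for 1 library far from the others (Dixon's test at 95%), 259 groups of values in all. Chance flags about 1 in 20, and 15 were flagged. In female saline libraries at 3 h, replicate 4 was high for Rplp2 (34.9 FPKM, others 20.7 to 22.8) and Rps6 (30.2, others 16.0 to 18.4), and replicate 3 had Rpl3l listed at 0 (others 0.818 to 0.922). In female saline libraries at 24 h, replicate 1 was high for Rps20 (12 FPKM, others 4.05 to 4.94).

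In male saline libraries at 24 h, Rpl3l was high in replicate 1 (1.14 FPKM, others 0.0617 to 0.289) and Rps3a3 in replicate 3 (2.53, others 1.81 to 1.96). In female saline libraries at 72 h, Rpl17 was high in replicate 2 (3.86 FPKM, others 3.25 to 3.33) and Rpl5 in replicate 3 (55.3, others 49.9 to 50.8). In female LPS libraries at 3 h, Rplp0 was low in replicate 3 (21.3 FPKM, others 37.3 to 43.5). In female LPS libraries at 24 h, Rpl39 was high in replicate 4 (133 FPKM, others 26.3 to 43.5), Rps20 in replicate 2 (9.95, others 5.27 to 5.99), and replicate 3 was low for Rpl4 (39.0, others 54.9 to 58.0) and Rps18 (31.7, others 57.1 to 61.4). In male LPS libraries at 24 h, replicate 1 was high for Rpl36a (23.4 FPKM, others 10.7 to 13.6) and Rps20 (22.3, others 3.99 to 8.69).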

How the results depend on the processing

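Among the genes named for a call, no alternative reversed the direction of a called value. The number of members called in males at 24 h (33) was 12 with size factors, 55 with only the compared groups in the fit, 0 within each number format, 2 with the mitochondrial share as a term (chosen after seeing the data) and 2 without saline replicates 1 and 2 of both sexes (chosen after seeing the data); leaving out 1 library at a time it ran from 9 to 41. In females at 24 h (2) it was 1 within single-precision and 0 within double-precision libraries, 1 without those saline replicates, and 2 to 4 leaving out 1 library at a time. For the difference between 24 h and 3 h it was 1 with the mitochondrial share as a term. The cause of these moves was not tested. Formats and omissions leave fewer libraries, and the shares of all genes called in these fits are not given here. Of 207 alternative values of the counts, the other 190 stayed within 1.5 times. Same-numbered libraries did not deviate together (r from -0.28 to 0.26 in males at 24 h, where 1 of 5 libraries correlated best with its own number); with the replicate number as a block, 20 genes were called in males. Of the 10 genes named for a call, Rps18 lost it under 2 of 25 alternatives and Rpl32 under 12 of 25; Rps4x lost it under 2 of 24. Depth is unknown, so the precision of low values such as Rpl3l cannot be stated.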
